A study of Mus musculus with 12 samples.

Results

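Interferon response and antigen presentation genes were followed in a mouse podocyte line exposed to fluid flow. The members came from a list of 47 genes, and a gene was taken where the deposited value table held a row annotated with its symbol alone, using the brightest row of a gene with several rows. By that rule 39 of the 47 genes were measured, out of 14860 genes with such a row and 23332 rows in all. Ifit3, Oas3, Eif2ak2 and Ciita appeared in rows shared by several symbols, and Isg15, Ifi44, Nlrc5 and Usp18 had no row that named them here, so these 8 genes were not analysed.

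The samples were 12 Affymetrix Mouse Exon 1.0 ST arrays, 3 in each of 4 groups, and every group used the same conditionally immortalized podocyte line from the Immortomouse. Podocytes are the epithelial cells that wrap the filtering capillaries of the kidney. The line carries the temperature-sensitive tsA58 T antigen, and per the labels' protocols it was propagated at 33 °C with 10 units of γ-interferon per ml, then differentiated at 37 °C without γ-interferon and used on day 14. All cells of the study therefore had a past exposure to γ-interferon, and no group kept it out. Control cells stayed in the same hood and incubator without flow, and the labels do not say when they were harvested. Sheared cells received a flow of 75 ml per minute, a shear stress of 2 dynes/cm2, for 2 h. They were harvested when the flow stopped (End), 2 h later (Post-2hr) or 24 h later (Post-24hr). The labels number the arrays of a group 1 to 3 without saying that they came from separate cultures, so each p-value measures only how far these samples spread, and that spread may be technical.

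Interferons are secreted proteins that cells release on sensing viral nucleic acid, and lymphocytes release γ-interferon on activation. Type I interferons act through a receptor, JAK kinases and a complex that holds STAT2 and IRF9 and binds interferon-stimulated response elements (ISRE) in promoters, while γ-interferon acts mainly at γ-activated sites (GAS). The target genes code for antiviral proteins, sensors of viral RNA, chemokines that attract activated T cells, and the machinery that cuts proteins into peptides and loads them on class I major histocompatibility complex (MHC) molecules. In the kidney, podocytes can be induced to express many of these genes.

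Values were log2 expression levels, so a difference of 1 is a 2-fold change, and differences are given with the standard error (SE) of the linear model. A member was called where its p-value from limma, adjusted by the Benjamini-Hochberg method over all 23332 rows, was under 0.05. In bulk RNA, fewer cells expressing a gene and less of its RNA per cell cannot be told apart. Array medians ran from 6.93 to 7.11. On the first principal component over all rows, which held 42.41% of the variance, the replicate 1 arrays of all 4 groups lay between -53.24 and -26.73 and the other arrays between 3.00 and 34.50. That split was noticed in these same arrays and is not a group of the study, and the labels give no batch or date for it.

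The members were compared in 2 ways. Over the harvests after shear 0 of 39 passed the test in any comparison, where at most 0.0257% of all rows passed. Between the replicate 1 arrays and the arrays of replicates 2 and 3, with the 4 group means held, 29 of 39 passed, 25 lower and 4 higher in replicate 1. Over all rows 30.5% passed in that comparison, 11.0% lower and 19.5% higher. Over genes with 1 symbol 34.6% passed, 14.5% lower and 20.1% higher. The split was found in these same arrays and the members were chosen with these results known. The shares are therefore a description with no test. Each p-value of the replicate comparison describes these arrays only and is no independent support for the difference. The median difference of the members was -0.55, against -0.03 over all genes with 1 symbol.

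**Figure D1:**
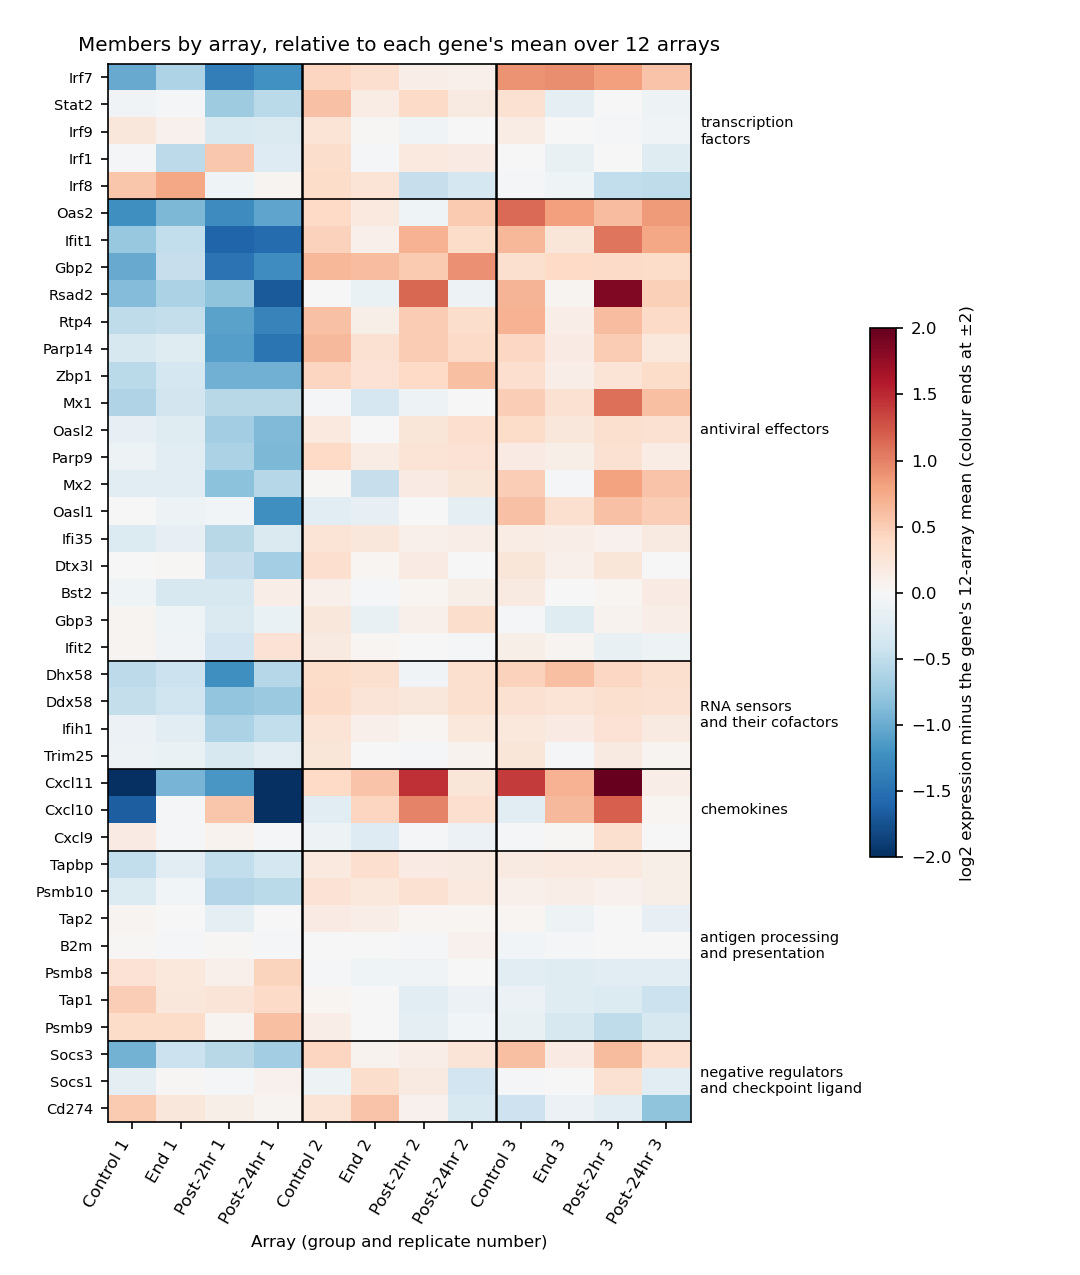
Each row is a member and each column an array (group and replicate number), and the colour is log2 expression minus the member's mean over the 12 arrays, with the scale ending at 2 in both directions. The 4 replicate 1 columns are blue for 20 members whose 4 replicate 1 arrays all lay below the 8 other arrays, while Psmb8, Psmb9 and Tap1 are red there.

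The separation was visible in the single arrays. In 20 members all 4 replicate 1 arrays lay below all 8 others, which held for 8.67% of genes with 1 symbol, and in 2 members (Psmb8 and Tap1) they lay above, which held for 13.7%. The other 17 members overlapped. The replicate 1 array was below the mean of replicates 2 and 3 in each of the 4 groups for 24 members, against 26.0% of genes, and above it in each group for 4 members, against 25.6%. For those 24 members the replicate 1 array was thus lower in Control as well as in the 3 sheared groups.

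Promoter sequence was read because the members are known targets of the same DNA elements. A higher share than over all genes was therefore built into the list. RefSeq windows from 250 bases before to 50 bases after a gene start (GRCm38.p6) were found for 29 of the 39 members. The ISRE core, read as GAAANNGAA on either strand, was present in 14 of these 29 (48.3%), against 9.76% of 27025 RefSeq genes with a window and 8.97% of 11869 genes of the array table. A GAS core, read as TTCNNNGAA, which reads the same on both strands, was in 7 (24.1%), against 9.55% and 8.64%. Of the members lower in replicate 1, 9 of 16 with a window held an ISRE core. None of the 4 higher members did. Of the 9 members that were not called 5 did (55.6%), a share like that of the lower members (56.2%). A match is a description of the letters only, and overlapping cores were counted separately. The windows below show members that were lower in replicate 1 (Ifit1, Gbp2, Rsad2 and Cxcl10), one that did not pass (B2m) and one that was higher (Tap1), and were picked after the values were seen. Capitals mark the ISRE cores, each sequence runs 5′ to 3′ on the gene's strand, and Tap1 has none.
Ifit1 (chr19:34640639-34640938, + strand): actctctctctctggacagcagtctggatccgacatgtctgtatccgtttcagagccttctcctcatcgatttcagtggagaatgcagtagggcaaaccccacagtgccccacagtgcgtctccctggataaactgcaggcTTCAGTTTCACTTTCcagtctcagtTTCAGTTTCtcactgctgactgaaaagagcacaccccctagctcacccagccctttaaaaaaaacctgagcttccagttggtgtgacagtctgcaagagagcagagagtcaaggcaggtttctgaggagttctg
Gbp2 (chr3:142620413-142620712, + strand): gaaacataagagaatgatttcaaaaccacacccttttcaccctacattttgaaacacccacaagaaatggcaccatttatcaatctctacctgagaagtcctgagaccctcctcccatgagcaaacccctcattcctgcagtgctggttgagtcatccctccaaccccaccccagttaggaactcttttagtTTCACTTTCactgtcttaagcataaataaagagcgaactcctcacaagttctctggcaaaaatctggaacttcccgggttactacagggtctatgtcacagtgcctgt
Rsad2 (chr12:26456403-26456702, - strand): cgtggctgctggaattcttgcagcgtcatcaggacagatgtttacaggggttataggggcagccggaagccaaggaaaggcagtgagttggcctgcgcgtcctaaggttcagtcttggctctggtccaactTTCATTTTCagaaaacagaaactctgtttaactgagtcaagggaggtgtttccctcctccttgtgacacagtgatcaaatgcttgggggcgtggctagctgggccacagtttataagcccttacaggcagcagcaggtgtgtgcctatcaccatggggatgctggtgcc
Cxcl10 (chr5:92348840-92349139, - strand): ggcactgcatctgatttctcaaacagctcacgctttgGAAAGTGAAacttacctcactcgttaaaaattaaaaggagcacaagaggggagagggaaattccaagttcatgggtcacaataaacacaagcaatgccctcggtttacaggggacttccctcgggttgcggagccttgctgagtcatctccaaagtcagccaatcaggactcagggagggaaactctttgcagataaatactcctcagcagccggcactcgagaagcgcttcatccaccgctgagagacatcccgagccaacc
B2m (chr2:122147437-122147736, + strand): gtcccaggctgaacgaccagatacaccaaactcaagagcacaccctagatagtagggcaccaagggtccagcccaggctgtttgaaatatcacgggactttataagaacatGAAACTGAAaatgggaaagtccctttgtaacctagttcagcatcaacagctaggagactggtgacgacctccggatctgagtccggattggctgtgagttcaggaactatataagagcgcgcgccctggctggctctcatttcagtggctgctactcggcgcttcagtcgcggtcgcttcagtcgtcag
Tap1 (chr17:34187306-34187605, + strand): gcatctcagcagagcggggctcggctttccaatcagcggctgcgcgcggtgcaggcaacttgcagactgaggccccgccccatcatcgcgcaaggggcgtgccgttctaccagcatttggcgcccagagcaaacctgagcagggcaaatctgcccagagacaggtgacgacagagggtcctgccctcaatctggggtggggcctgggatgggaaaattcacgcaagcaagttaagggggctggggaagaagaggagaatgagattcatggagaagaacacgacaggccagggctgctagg
The 3 cores of Ifit1 began at -109, -103 and -84 from the start site and the first 2 overlap. The core of Gbp2 began at -58, that of Rsad2 at -119, that of Cxcl10 at -213 and that of B2m at -139. The Psmb9 window lies on the opposite strand and overlaps that of Tap1, and it also held no ISRE core.

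Among the transcription factors of the pathway, Irf7 and Stat2 were lower in replicate 1, Irf8 was higher, and Irf1 and Irf9 did not pass. Irf7 drives type I interferon genes after a first wave of signalling. Its level was 7.84, 8.22, 7.46 and 7.64 in the replicate 1 arrays of Control, End, Post-2hr and Post-24hr, against 8.95 to 9.77 with a median of 9.35 in the 8 others. The sets did not overlap, and the difference was -1.58 ± 0.18 (adjusted p = 0.000241), a 2.99-fold lower level. Stat2, a subunit of the type I complex, had 9.64, 9.69, 9.00 and 9.17, against 9.53 to 10.29 with a median of 9.87. Its sets overlapped and its difference was -0.50 ± 0.15 (adjusted p = 0.0284), and it lost the call when any of 4 arrays was left out (Control replicate 1, Control replicate 2, Post-2hr replicate 1 or Post-24hr replicate 1).

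Irf8, known mainly from myeloid and B cells and inducible by γ-interferon, ran the other way. It had 8.97, 9.18, 8.32 and 8.46 in replicate 1, against 7.90 to 8.77 with a median of 8.19 in replicates 2 and 3. The pooled sets overlapped, but within each group the replicate 1 array was the highest, and the difference with group means held was 0.49 ± 0.10 (adjusted p = 0.00449). Irf1, a factor induced by γ-interferon, had 10.53, 10.04, 11.10 and 10.31, against 10.33 to 10.92 with a median of 10.56. The replicate 1 arrays of Irf1 held both its lowest and its highest value, and the difference of -0.10 ± 0.14 did not pass (adjusted p = 0.612). Irf9, which gives the type I complex its DNA binding, differed by -0.11 ± 0.07 (adjusted p = 0.266).

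Antiviral effectors were the role with most members, with a median difference of -0.74. Of 17, 14 were lower in replicate 1, against 14.5% of genes with 1 symbol, and 0 were higher, against 20.1%. Oas2 makes a short oligoadenylate that switches on an RNA-degrading enzyme. It had 6.08, 6.41, 6.05 and 6.26 in replicate 1, against 7.22 to 8.45 with a median of 7.88, a difference of -1.67 ± 0.20 (adjusted p = 0.000287). Ifit1, which holds back viral RNA that lacks host cap marks, had 10.27, 10.53, 9.43 and 9.49, against 11.13 to 12.10 with a median of 11.59. For both genes the 4 arrays lay below all others, and the Ifit1 difference was -1.65 ± 0.25 (adjusted p = 0.0011), or 3.13-fold.

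Gbp2, a GTPase that assembles on membranes around intracellular pathogens, was the brightest of the antiviral members. Its replicate 1 arrays read 10.93, 11.48, 10.46 and 10.70, against 12.26 to 12.85 with a median of 12.41. The gap between the sets was wider than the range within replicates 2 and 3, and the difference was -1.58 ± 0.17 (adjusted p = 0.000162). Gbp3, a gene of the same cluster on chromosome 3 with 1 coding gene between, differed by -0.17 ± 0.10 and did not pass (adjusted p = 0.218). The first of 2 RefSeq windows of Gbp3 held 2 overlapping ISRE cores, so a core was present in the window of both genes.

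Rsad2 codes for viperin, a radical enzyme that blocks replication of several viruses. It had 7.94, 8.17, 8.01 and 7.13 in replicate 1, against 8.67 to 10.66 with a median of 9.07. The sets did not overlap, and the difference was -1.49 ± 0.27 (adjusted p = 0.00295). Rtp4 differed by -1.27 ± 0.16, Parp14, a mono-ADP-ribosyltransferase, by -1.17 ± 0.18, and Zbp1, a sensor of Z-form nucleic acid that can start necroptosis, by -1.06 ± 0.13, each without overlap. Parp9 and Dtx3l form an enzyme complex. In the RefSeq gene order on chromosome 16 Dtx3l lies directly between Parp9 and Parp14. The differences of Parp9 and Dtx3l were smaller, at -0.69 ± 0.12 and -0.41 ± 0.10.

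Smaller differences were found for Oasl2 (-0.74 ± 0.13), Ifi35 (-0.49 ± 0.06) and Bst2, whose product tethers budding virus (-0.23 ± 0.06). Mx1 and Mx2, GTPases that block incoming virus, differed by -0.78 ± 0.25 and -0.67 ± 0.22, with adjusted p of 0.0399 and 0.0466. Mx1 averaged 3.38 ± 0.11 (SD, n = 4) in replicate 1 and 4.16 ± 0.47 (SD, n = 8) in replicates 2 and 3, below the lower quartile of the arrays. Mx1, Mx2 and the chemokine gene Cxcl11 are annotated by RefSeq as transcribed pseudogenes in the reference mouse strain. The calls of Mx1, Mx2, Bst2 and Dtx3l were each lost when some single arrays were left out. For Bst2 these were Control, End and Post-2hr replicate 1, and for Dtx3l Post-2hr replicate 1. For Mx1 they were the Control, Post-2hr and Post-24hr arrays of replicate 1 and the Control, End and Post-24hr arrays of replicate 3. Mx2 lost its call without any of those 6 arrays, and also without Post-2hr replicate 2, Post-2hr replicate 3 or Post-24hr replicate 2.

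The antiviral members that did not pass were Oasl1, Gbp3 and Ifit2. Oasl1, known in mouse to hold back translation of Irf7, differed by -0.51 ± 0.25 (adjusted p = 0.159), with its Post-24hr replicate 1 array at 6.63 and its other replicate 1 arrays between 7.75 and 7.85. Ifit2 differed by -0.04 ± 0.09 (adjusted p = 0.749), although Ifit1, 4 coding genes away on chromosome 19, was among the members with the largest difference. The Ifit, Oas, Gbp and Mx genes belong to families with similar sequences, and cross-hybridisation of their probes was not examined here.

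**Figure D2:**
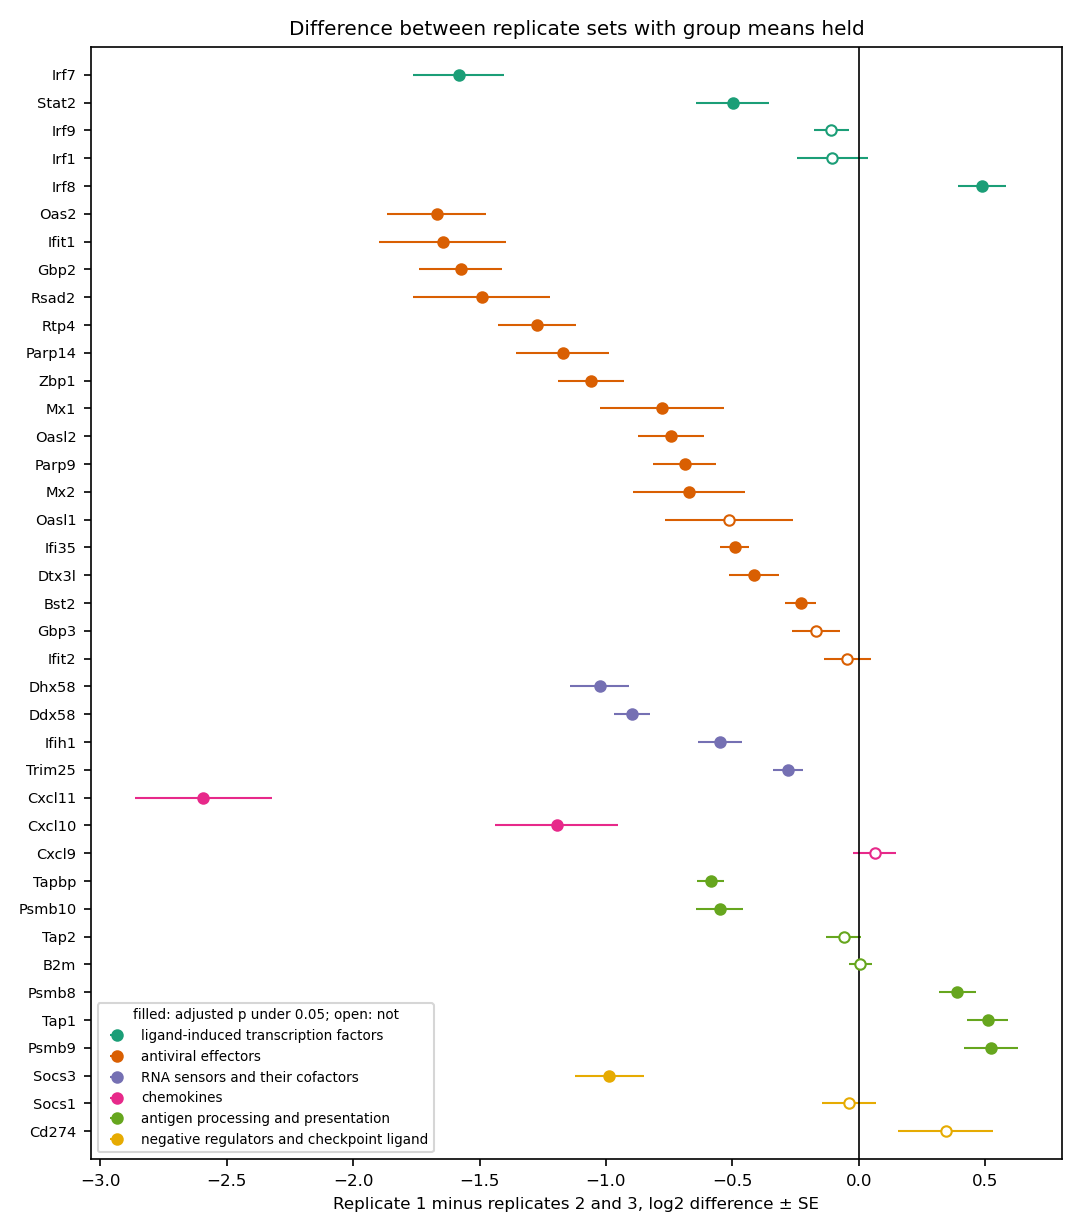
Points are the difference of replicate 1 minus replicates 2 and 3 with group means held (log2 units) for the 39 members in order of role, bars are SE, and filled points passed the adjusted threshold. Antiviral effectors, sensors and 2 chemokines lie left of 0, and Irf8, Psmb8, Psmb9 and Tap1 lie right of it.

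All 4 genes of RNA sensors and their cofactors were lower in replicate 1, against 14.5% of genes with 1 symbol. Their median difference was -0.72. Ddx58 codes for RIG-I, which detects uncapped viral RNA. It had 10.19, 10.28, 9.89 and 9.93 in replicate 1, against 10.90 to 11.06 with a median of 10.98. The difference was -0.90 ± 0.07 (adjusted p = 4.48e-05). The 8 other arrays of Ddx58 lay close together, whatever the harvest. Dhx58 codes for LGP2, a regulator of the other sensors, and had 7.13, 7.23, 6.42 and 7.09, against 7.59 to 8.26 with a median of 7.99. Its difference was -1.02 ± 0.12 (adjusted p = 0.000244). Ifih1 codes for MDA5, a sensor of long double-stranded RNA, and had 8.99, 8.89, 8.47 and 8.61, against 9.14 to 9.40 with a median of 9.30. The Ifih1 difference was -0.55 ± 0.09 (adjusted p = 0.0014), and that of Trim25, a ubiquitin ligase that activates RIG-I, was -0.28 ± 0.06 (adjusted p = 0.00633). In each of these 4 genes all replicate 1 arrays lay below the 8 others, which held for 8.67% of genes with 1 symbol.

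Cxcl9, Cxcl10 and Cxcl11 are the genes named for the 3 ligands of CXCR3, a chemokine receptor found on T cells, and lie together on chromosome 5. RefSeq annotates Cxcl11 as a transcribed pseudogene in the reference mouse strain. Cxcl11 had the largest difference of all members. It read 5.94, 7.40, 7.17 and 5.92 in replicate 1, against 8.47 to 10.36 with a median of 8.97, a difference of -2.59 ± 0.27 (adjusted p = 0.000157) and 6.03-fold. Cxcl10 read 9.05, 10.66, 11.24 and 8.63, against 10.47 to 11.88 with a median of 11.08. Its sets overlapped, although within each group the replicate 1 array was the lowest, and the difference with group means held was -1.20 ± 0.24 (adjusted p = 0.00537). Cxcl9 stayed near the floor of the arrays at 4.94 ± 0.09 (SD, n = 4) in replicate 1 and 4.88 ± 0.17 (SD, n = 8) in replicates 2 and 3, below the lower quartile, and did not pass (0.06 ± 0.09, adjusted p = 0.605).

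Antigen processing genes were divided, with 3 of 7 higher, 2 lower and 2 that did not pass. Over all genes with 1 symbol 20.1% were higher and 14.5% lower. Psmb8, Psmb9 and Psmb10 code for the catalytic subunits that γ-interferon exchanges into the immunoproteasome. Psmb9 had 11.30, 11.30, 10.99 and 11.53 in replicate 1, against 10.43 to 11.06 with a median of 10.76, a difference of 0.52 ± 0.11 (adjusted p = 0.00549). Psmb10 had 11.20, 11.42, 10.90 and 10.94, against 11.57 to 11.79 with a median of 11.64, a difference of -0.55 ± 0.09 (adjusted p = 0.00196). So 2 subunits of the same particle differed in opposite directions between the same arrays, and the third, Psmb8, was higher by 0.39 ± 0.07 (adjusted p = 0.00327).

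Tap1 and Tap2 form the pump that carries peptides into the endoplasmic reticulum, and in the RefSeq order Psmb9, Tap1, Psmb8 and Tap2 are consecutive coding genes on chromosome 17. Tap1 was higher by 0.51 ± 0.08 (adjusted p = 0.0013), with no overlap between the sets, while Tap2 differed by -0.06 ± 0.07 (adjusted p = 0.559). Psmb9, Tap1 and Psmb8, 3 of the 4 members higher in replicate 1, were thus consecutive genes, and Tap2, the last of that run, did not pass. Tapbp, or tapasin, bridges the pump and the class I molecule. It had 11.16, 11.45, 11.16 and 11.31, against 11.78 to 11.99 with a median of 11.84, a difference of -0.59 ± 0.05 (adjusted p = 9.68e-05). B2m, the light chain of class I, had 13.87, 13.83, 13.87 and 13.82, against 13.79 to 13.93 with a median of 13.85. Its difference was 0.01 ± 0.04 (adjusted p = 0.927), at a level near the top of the array scale.

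Of the negative regulators, Socs3 was lower in replicate 1 and Socs1 and Cd274 did not pass. Socs3 codes for an inhibitor of JAK kinases and was the only member with 2 rows. Its brighter row had 7.58, 8.09, 7.97 and 7.83, against 8.60 to 9.15 with a median of 8.82. The sets did not overlap, and the difference was -0.99 ± 0.14 (adjusted p = 0.000687). Socs1, the main brake on γ-interferon signalling, differed by -0.04 ± 0.11 (adjusted p = 0.822). Cd274 codes for PD-L1, which restrains T cells, and had 9.95, 9.64, 9.54 and 9.47, against 8.61 to 9.99 with a median of 9.25. That difference was 0.34 ± 0.19 (adjusted p = 0.202).

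Replicates 2 and 3 were also set against each other. No member passed, and 1 row of the whole table did (0.00429%), while 10 members had an unadjusted p under 0.05, against 5.46% of genes with 1 symbol. Among these 10, Irf7 (-0.55 ± 0.11), Mx1 (-0.75 ± 0.15), Oas2 (-0.60 ± 0.12) and Oasl1 (-0.64 ± 0.21) were lower in replicate 2, and Cd274 (0.55 ± 0.13), Psmb9 (0.30 ± 0.08) and Tap1 (0.19 ± 0.07) were higher. None of these differences passed the adjustment (lowest adjusted p = 0.542). Set against replicate 2 alone, replicate 1 differed in 19 members (14.3% of rows), and against replicate 3 alone in 24 members (20.4% of rows).

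Other genes of the pathway, from lists that hold no member, were read in the same fit. Over all genes with 1 symbol 34.6% passed in it, 14.5% lower and 20.1% higher in replicate 1. Of 23 further interferon-stimulated genes 12 were lower in replicate 1 and 1 was higher, with a median of -0.34. They included Cmpk2 (-1.18 ± 0.18), a mitochondrial nucleotide kinase gene next to Rsad2 in many genomes, Trim30a (-0.93 ± 0.12) and Parp12 (-0.62 ± 0.08), and the higher gene was Ifi30 (0.34 ± 0.07), a lysosomal thiol reductase. Of 6 measured interferon genes 0 passed. Ifnb1, the gene of interferon β, was dim and averaged 5.07 in replicate 1 and 5.57 in replicates 2 and 3 (-0.50 ± 0.18, adjusted p = 0.0605), and Ifng differed by -0.05 ± 0.11 (adjusted p = 0.783).

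Receptor and kinase genes went both ways, where 34.6% of all genes with 1 symbol passed, 14.5% lower and 20.1% higher. Of 10 measured, Il10rb (-0.68 ± 0.08), Ifngr2 (-0.53 ± 0.05) and Ifnar1 (-0.48 ± 0.09) were lower, and Jak2 (0.44 ± 0.09) and Jak1 (0.21 ± 0.06) were higher. Of 15 innate sensing genes upstream of interferon, plotted as nucleic acid sensing, 4 were lower and 1 was higher. The lower ones included Sting1 (-0.68 ± 0.12), Tlr3 (-0.53 ± 0.12) and Nod1 (-0.80 ± 0.15), whose product is not a nucleic acid sensor. Of 7 further class I genes and loading factors 3 were lower, namely Calr (-0.40 ± 0.07), Tapbpl (-0.40 ± 0.10) and Pdia3 (-0.29 ± 0.06). H2-Q10 was the only class I heavy chain gene among them, since H2-K1, H2-D1 and the others listed had no row of their own. Of 9 class II genes 0 passed, although H2-Aa, Cd74 and H2-Ab1 were bright in all arrays, with mean levels of 11.26, 13.00 and 11.83. Psmb6, the constitutive subunit that Psmb9 replaces, was higher by 0.32 ± 0.05 (adjusted p = 0.00103).

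The members did not move alone between the replicate sets. Of 16 genes expressed in G2 and mitosis, 15 were lower in replicate 1, against 14.5% of all genes with 1 symbol. Their median of -1.47 was larger in size than the median of the members. Their summed level, taken as log2 of the sum of linear values, was 11.45 to 11.82 in replicate 1 and 12.40 to 13.68 in replicates 2 and 3, while that of the members was 15.46 to 15.64 and 15.84 to 15.99. Of 9 podocyte markers 4 passed, against 34.6% of all genes with 1 symbol. Plce1 (-2.33 ± 0.15), Podxl (-1.19 ± 0.10) and Actn4 (-0.23 ± 0.05) were lower in replicate 1 and Cd2ap (0.27 ± 0.07) was higher. Nphs1, the gene of nephrin and a defining podocyte marker, averaged 6.64 over the 12 arrays, below every array median, and Wt1 averaged 7.35. The part of cell cycle and podocyte genes in the members' difference was not tested.

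Markers of leukocytes gave mixed values, where 34.6% of all genes with 1 symbol passed. Of 11 macrophage and leukocyte markers 2 were higher in replicate 1, Cd68 (2.20 ± 0.12) and Cd14 (0.51 ± 0.11), and 2 were lower, Csf1r (-1.43 ± 0.11) and Aif1 (-0.18 ± 0.06). Their summed level was 10.50 to 10.66 in replicate 1 and 9.78 to 10.28 in replicates 2 and 3. Cd68, at means of 9.60 and 7.39, was the brightest of these markers in replicate 1 and weighs most in that sum. The median level of these markers overlapped between the sets, at 5.36 to 5.59 in replicate 1 and 5.41 to 5.69 in replicates 2 and 3. Ptprc, the pan-leukocyte marker, lay below the lower quartile of the arrays in both sets, at 3.92 and 4.00, and its difference did not pass (adjusted p = 0.23). Of 5 dendritic cell and 8 endothelial markers 0 passed, 1 of 9 T and NK cell markers (Cd8a, -0.24 ± 0.08) and 2 of 7 fibroblast and mesangial markers (Pdgfrb, -0.53 ± 0.08, and Col1a1, -0.31 ± 0.08) were lower. Whether any of these cells contributed was not tested.

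**Figure D3:**
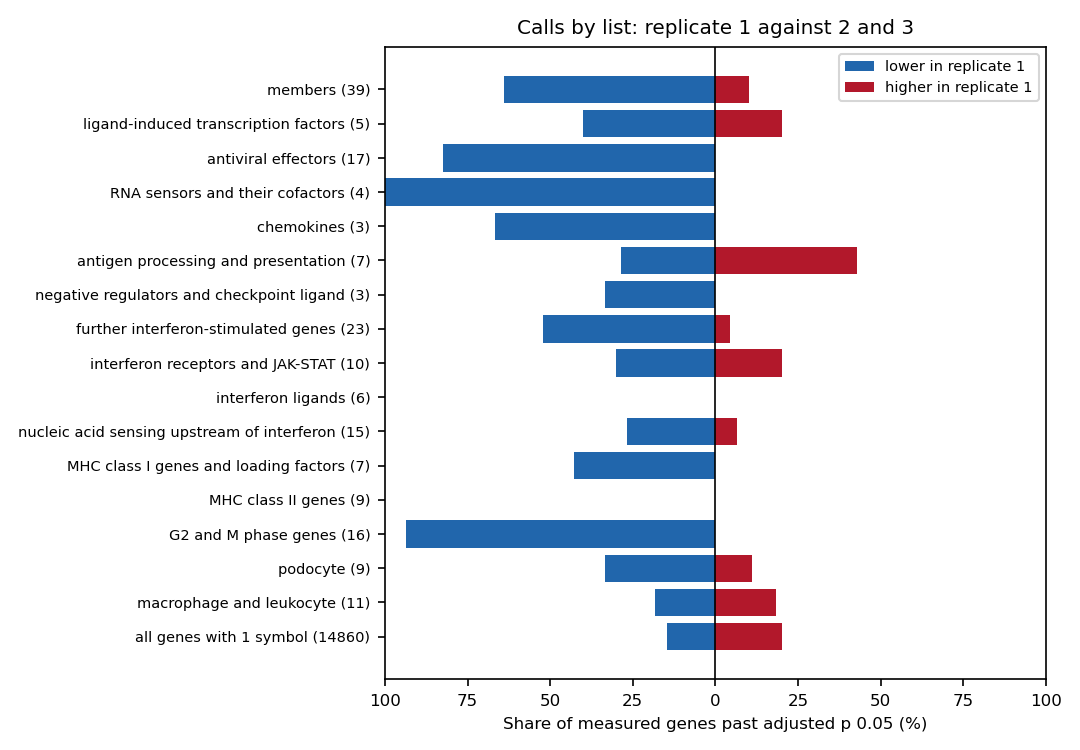
Bars give the share of measured genes called lower (left) or higher (right) in replicate 1 against replicates 2 and 3, in percent of the genes in each list, with the number measured in brackets. The members reach 25 of 39 to the left, the G2 and M phase genes 15 of 16, and all genes with 1 symbol 14.5%.

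The harvests after shear were compared over the same 39 members. At End 0 members passed against Control (0.0% of all rows), at Post-2hr 0 passed (0.0171% of rows) and at Post-24hr 0 passed (0.0%). Set against the harvest before it, Post-2hr gave 0 members (0.0257% of rows) and Post-24hr gave 0 (0.0%), and the F test for any difference among the 4 groups gave 0 (0.00857%). Unadjusted p-values under 0.05 were found for 0, 4 and 2 members at End, Post-2hr and Post-24hr against Control, where 2.75%, 5.61% and 1.96% of genes with 1 symbol had one. In each of the other comparisons 2 members had one, against 6.97% of genes for Post-2hr minus End and 5.43% for Post-24hr minus Post-2hr. With replicate 1 set apart in the model the count was still 0 in each comparison against Control, where 0.0%, 0.154% and 0.0% of rows passed. When limma's array weights were used, 9 members passed at Post-2hr, among them Cxcl10 (adjusted p = 0.0144) and Irf8 (adjusted p = 0.00669), and 16.6% of all rows passed. The same weights gave 0 members at End (0.33% of rows) and 0 at Post-24hr (0.0129%). The median difference of the members from Control was -0.10, -0.15 and -0.11 at End, Post-2hr and Post-24hr, against 0.02, -0.01 and 0.00 over all genes. The Post-2hr median was 0.14 without the Post-2hr replicate 1 array and the Post-24hr median 0.08 without the Post-24hr replicate 1 array. Leaving out such an array keeps the replicate 1 array of Control in the comparison. With replicate 1 left out of every group the medians were -0.15, -0.05 and -0.08 at End, Post-2hr and Post-24hr.

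Cxcl10 had the largest difference from Control of any member. Its 3 arrays in order of replicate number read 9.05, 10.47 and 10.48 in Control, 10.66, 11.12 and 11.34 at End, 11.24, 11.68 and 11.88 at Post-2hr, and 8.63, 11.03 and 10.73 at Post-24hr. Every End and Post-2hr array lay above every Control array, and the Post-24hr arrays overlapped Control. The Post-2hr difference was 1.60 ± 0.59, or 3.03-fold, and did not pass (adjusted p = 0.75). With replicate 1 set apart it was 1.60 ± 0.33 with adjusted p = 0.12. Within a replicate number, Cxcl10 at Post-2hr was above Control by 2.19, 1.21 and 1.40 in replicates 1, 2 and 3, and at End by 1.61, 0.65 and 0.86. The difference of Post-24hr minus Post-2hr was -1.47 ± 0.59 (adjusted p = 0.813).

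Rsad2 and Cxcl11 had like values at Post-2hr in replicates 2 and 3. Rsad2 read 7.94, 8.82 and 9.49 in Control, 8.17, 8.67 and 8.86 at End, 8.01, 9.96 and 10.66 at Post-2hr, and 7.13, 8.71 and 9.29 at Post-24hr. Its Post-2hr value exceeded Control by 0.07 in replicate 1 and by 1.14 and 1.17 in replicates 2 and 3, and the difference of 0.79 ± 0.71 did not pass (adjusted p = 0.97). Cxcl11 read 5.94, 8.73 and 9.73 in Control, 7.40, 8.91 and 9.04 at End, 7.17, 9.80 and 10.36 at Post-2hr, and 5.92, 8.58 and 8.47 at Post-24hr. It lay above Control at Post-2hr in every replicate number, by 1.22, 1.07 and 0.63, with a difference of 0.98 ± 1.14 (adjusted p = 0.981), and 0.98 ± 0.36 (adjusted p = 0.323) with replicate 1 set apart. In both genes the replicate 1 array was the lowest of its group at every harvest.

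Irf8 was the transcription factor with the largest difference from Control. It read 8.97, 8.77 and 8.38 in Control, 9.18, 8.68 and 8.32 at End, 8.32, 7.95 and 7.92 at Post-2hr, and 8.46, 8.06 and 7.90 at Post-24hr. All Post-2hr arrays lay below all Control arrays, with a difference of -0.65 ± 0.24 (adjusted p = 0.765), and the Post-24hr difference was -0.57 ± 0.24 (adjusted p = 1). With replicate 1 set apart the SE was 0.13 and the adjusted p 0.114 and 0.695. Irf9 averaged 10.53 ± 0.06 in Control, 10.35 ± 0.05 at End, 10.19 ± 0.16 at Post-2hr and 10.19 ± 0.15 at Post-24hr (SD, n = 3). The Post-2hr and Post-24hr arrays of Irf9 all lay below Control, and the differences were -0.35 ± 0.11 (adjusted p = 0.662) and -0.34 ± 0.11 (adjusted p = 1).

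None of the other members passed against Control. At Post-24hr Parp14 was at -0.54 ± 0.54, Cd274 at -0.49 ± 0.28, Rtp4 at -0.46 ± 0.57 and Stat2 at -0.43 ± 0.28 (adjusted p = 1 for each). Ifit2 at Post-2hr was at -0.29 ± 0.13 (adjusted p = 0.868), Socs1 at 0.27 ± 0.14 (adjusted p = 0.915) and Dtx3l at Post-24hr at -0.42 ± 0.22 (adjusted p = 1). Irf1 at Post-2hr lay above all End arrays (0.48 ± 0.19, adjusted p = 0.72). At End 13 members were lower than Control in each of the 3 replicate numbers, against 10.0% of genes with 1 symbol, 3 were higher, against 22.6%, and 23 were mixed. At Post-2hr 16 were lower, against 20.5% of genes, 4 were higher, against 15.8%, and 19 were mixed. At Post-24hr 18 were lower, against 16.3%, 2 were higher, against 14.4%, and 19 were mixed. The 3 comparisons share the Control arrays.

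**Figure D4:**
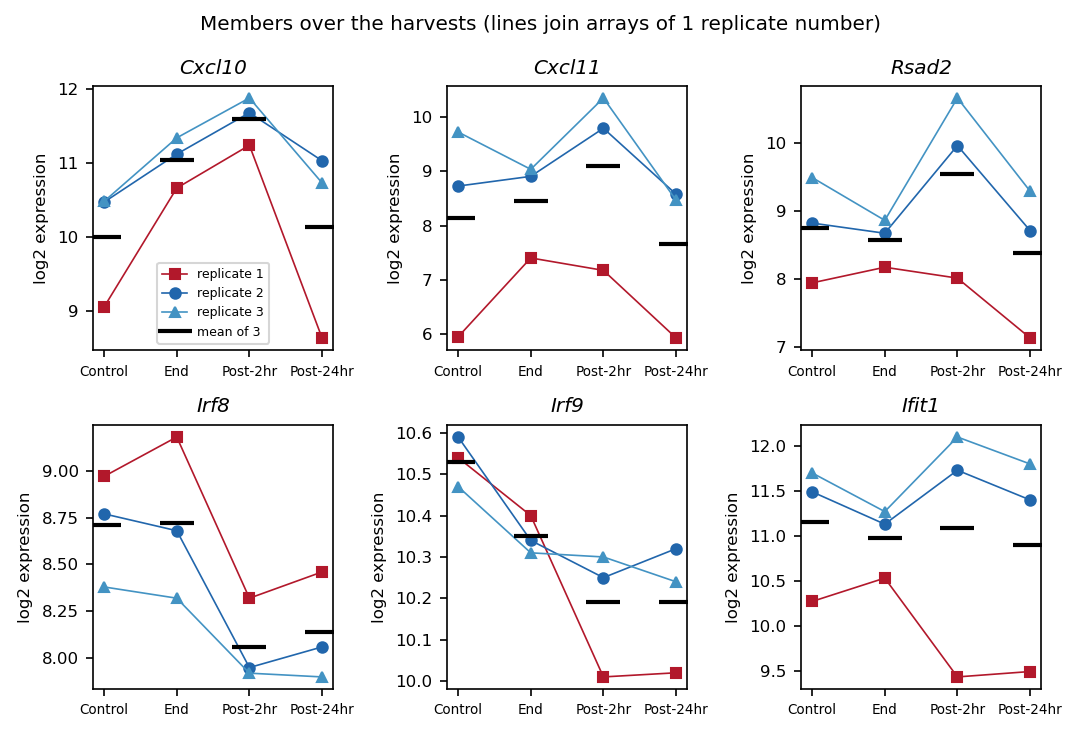
Each panel shows log2 expression of 1 member (vertical axis, scaled by gene) in Control, End, Post-2hr and Post-24hr arrays, with lines joining arrays of a replicate number and black bars for the mean of 3. Cxcl10 is highest at Post-2hr in all 3 replicate numbers, Irf8 is below Control at both later harvests in each replicate number, and Ifit1 lies between 9.43 and 10.53 in replicate 1 and above 11 in the others.

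The difference between replicate sets was not of one size in every group. The members had a median of -0.44 within Control, -0.34 within End, -0.68 within Post-2hr and -0.70 within Post-24hr. For Ifit1 the gap was -1.32 in Control, -0.67 at End, -2.48 at Post-2hr and -2.11 at Post-24hr. Parp14 had gaps of -0.85, -0.49, -1.60 and -1.75 in the same order. Whether the shear response differed between the sets was tested as an interaction, and 0 members passed at End, Post-2hr or Post-24hr (0.0% of rows in each). Unadjusted p-values under 0.05 were found for 4, 7 and 9 members, against 4.1%, 3.86% and 4.63% of genes with 1 symbol. The lowest adjusted p of a member was 0.757, 1 and 0.865, and these fits held only 1 replicate 1 array in each group.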

How the data were processed

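The deposited values were log2 expression levels, which the authors summarised by gene from probes on several exons per the labels' protocols. Some genes still had more than 1 row. The submitters' processing notes name RMA and Partek. Settings, versions and genome build were not given in the sources used here. Since RMA gives all arrays a common distribution, a change in total RNA per cell would not show, and the number of arrays limits the precision. No detection calls were used. Rows were named from the platform annotation. The members and lists were chosen with earlier results of these data known.

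limma 3.58.1 (R 4.3.3, lmFit and eBayes) was fitted to all 23332 rows with a mean for each group (8 residual and 2.16 prior degrees of freedom). A second fit added a term for replicate 1 against replicates 2 and 3 (7 residual, 2.17 prior), a further fit had replicate number with 3 levels, and the interaction had 8 means. The code was tested on simulated data. Members given array by array were, within a role, up to 3 called with the largest difference, the one farthest from Control and the brightest, and others are given by ranges and counts. Cxcl11 and Rsad2 over the harvests, and the plotted genes, were chosen after their values were seen. Alternatives were a replicate block, replicates 2 and 3 only, centring, quantile normalization, leaving out rows with a mean level below the 25th or 50th percentile, rows with 1 symbol, an intensity trend, no moderation, array weights, the mean of a gene's rows, only the groups compared, and each array left out. Tables and promoter searches used Python 3.11.15, pandas 2.3.3 and numpy 2.4.6, and figures matplotlib 3.10.9.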

Additional observations from a re-analysis of the deposited data

How the results depend on the processing

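In the replicate comparison 18 of the 29 called members kept their call in all 23 alternatives, 11 lost it in some and 0 reversed. Leaving out 1 array gave 24 to 29 called members, with 24 without Post-2hr replicate 1 (22.8% of rows). Against replicate 2 alone 19 members passed (14.3% of rows) and against replicate 3 alone 24 (20.4%). Within End the median difference was -0.34, within Post-2hr -0.68 and within Post-24hr -0.70, against -0.55 over all groups. For the harvests, array weights gave 9 members at Post-2hr against Control, where 16.6% of all rows passed (Irf8, Irf9, Stat2, Ifit2, Rsad2, Cxcl9, Cxcl10, Psmb9 and Socs1), among them Cxcl10 at 1.43 ± 0.30 (adjusted p = 0.0144) and Irf8 at -0.81 ± 0.13 (adjusted p = 0.00669). The cause was not tested. Over all alternatives the adjusted p at Post-2hr ran from 0.0144 to 1 for Cxcl10 and from 0.00669 to 1 for Irf8. Every other alternative gave 0 members in each harvest comparison. Medians over the harvests with 1 array left out ran from -0.26 to -0.02 at End, from -0.30 to 0.14 at Post-2hr and from -0.34 to 0.08 at Post-24hr, each against Control. Centring or quantile normalization moved the median over genes by at most 0.068 in size and changed the sign of 0 called members.

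The replicate numbers were not treated as pairs, since the rule asked all 18 correlations between same-numbered arrays to exceed 0.1 and 1, at 0.029, did not. The numbers still grouped the arrays in part. The 6 correlations within replicate 1 were 0.522 to 0.723, and 11 of 12 arrays correlated best with one of their own number. Of 36 pairs with different numbers 11 exceeded 0.1. The harvest fit with only a mean for each group therefore counted the offset of replicate 1 as spread. With the replicate block 0 members passed at End, Post-2hr or Post-24hr, with medians of -0.10, -0.15 and -0.11. No scanner files were used, so it is not known which dim values, such as those of Mx1 and Cxcl9, lie above background.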
